A study of Mus musculus with 12 samples.

Results

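The comparison described here set mice that went on eating a high-fat diet after weaning against mice that changed to a control diet at weaning, after the same high-fat exposure before it. It covered 6 of the 12 pooled samples of the study: the 3 pools named WL and the 3 pools named UL. All were male C57BL/6J wild-type mice, and the RNA came from their epididymal fat pads, the visceral fat that lies along the epididymis. In the UL group 45% of kcal came from fat from mating to weaning, through the dams, and 10% afterwards. The WL group received the diet with 45% of kcal from fat from mating to the end at 23 weeks. After weaning the UL diet held 70% of kcal as carbohydrate and the WL diet 35%, so fat and carbohydrate differed together, while protein was 20% of kcal in both. The control group of the study, CD, received the diet with 10% of kcal from fat throughout, and the UT group received the high-fat diet in utero only. The 3 pools of each group came from 12 mice, with nothing in the labels to say which mice or litters went into which pool. No gene was altered and no drug was given in any group.

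MicroRNAs are short RNAs that guide Argonaute proteins to matching messenger RNAs and lower their translation and stability. The match runs mainly through the seed, bases 2 to 8 of the microRNA, so microRNAs with the same seed share many targets. In fat, some microRNAs act on the differentiation of preadipocytes, others on insulin and mTOR signalling, and others come from the immune and vascular cells that share the tissue with adipocytes. About 22 mg of fat pad tissue was measured, with its cell types together. A lower level of a cell type's microRNA could therefore mean fewer of those cells or less of the RNA per cell, which cannot be told apart.

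The measurements were threshold cycles (Ct) of PCR assays for 504 microRNAs with RNU-43 and U6-snRNA as 2 small RNAs for reference. A level is given throughout as the mean Ct of a pool over the 466 microRNAs measured in all 12 pools, minus the Ct of the microRNA. Higher levels mean more RNA, and 1 cycle stands for a 2-fold difference if the PCR doubles its product in each cycle. A difference is the mean level of WL minus that of UL, in cycles on the log2 scale. Levels of separate assays were not compared as amounts, because assays can differ in efficiency.

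The 6 pools gave values for 496 to 506 of the 506 assays, with median Ct between 25.01 and 25.215. WL 3 stood apart from the other 5 pools. Its level lay more than 1 cycle above all the others for 28 of the 486 microRNAs measured in the 6 pools and more than 1 cycle below all the others for 44. For UL 1, UL 2 and UL 3 the same counts were 0 to 2 above and 2 to 3 below. WL 1 and WL 2 lay above in 3 and 1 and below in 13 and 12. The SD of the levels around their group mean was 0.42 to 0.43 in the UL pools and 0.67, 0.79 and 0.97 in WL 1, WL 2 and WL 3. RNU-43 was at 6.84, 7.03 and 7.48 in UL and at 7.19, 7.44 and 7.77 in WL, and U6-snRNA had no value in WL 3. Scaling to RNU-43 instead of the mean Ct moved the median difference of all microRNAs from -0.05 to -0.40. It moves every microRNA measured in the 6 pools by the same amount, so values under it are to be read against -0.40. Scaling to U6-snRNA also leaves out WL 3 and UT 1, and gave a median of 0.32. Leaving out WL 3 alone gave 0.08. Values without WL 3, or without another pool, are therefore given beside results that they move.

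The mature sequences below are of microRNAs named in the results, written 5′ to 3′ with the seed in capitals, from RefSeq on mouse assembly GRCm38.p6. A sequence was matched for 393 of the 504 microRNAs. For miR-694, miR-122-5p, miR-497-5p and miR-379 none was found, so the sets below lack them. The first set had its 3 WL pools above the 3 UL pools and is among the 20 microRNAs with the smallest unadjusted p.
miR-698-3p: cAUUCUCGuuuccuucccu
miR-139-5p: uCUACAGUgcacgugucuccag
miR-344-5p: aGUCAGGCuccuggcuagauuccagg
miR-804: uGUGAGUUguuccucaccugga
miR-100-5p: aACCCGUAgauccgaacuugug
miR-365-1-5p: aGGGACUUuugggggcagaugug
miR-32-5p: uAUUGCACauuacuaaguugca
miR-697: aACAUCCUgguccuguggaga
miR-484: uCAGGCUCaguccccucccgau

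The second set had its 3 WL pools below the 3 UL pools and is among the same 20.
miR-541-3p: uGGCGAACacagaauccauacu
miR-759: gCAGAGUGcaaacaauuuugac
miR-127-3p: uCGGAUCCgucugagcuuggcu
miR-154-5p: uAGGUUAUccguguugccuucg
miR-294-3p: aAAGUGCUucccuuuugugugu

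The third set shows families whose members share a seed and are compared side by side further on: let-7 (GAGGUAG), miR-30 (GUAAACA) and miR-99 with miR-100 (ACCCGUA).
let-7a-5p: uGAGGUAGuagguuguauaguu
let-7c-5p: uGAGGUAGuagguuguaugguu
let-7e-5p: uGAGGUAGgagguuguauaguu
miR-30a-5p: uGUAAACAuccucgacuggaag
miR-30e-5p: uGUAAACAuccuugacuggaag
miR-99a-5p: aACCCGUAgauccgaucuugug
miR-99b-5p: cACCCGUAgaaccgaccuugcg

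The fourth set was far above or below the other 5 pools in WL 3.
miR-331-3p: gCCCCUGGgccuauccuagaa
miR-721: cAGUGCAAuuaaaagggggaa
miR-329-3p: aACACACCcagcuaaccuuuuu
miR-146a-5p: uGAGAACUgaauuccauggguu
miR-758-5p: uGGUUGACcagagagcacacg
miR-592-3p: uCAUCACGuggugacgcaacau

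On GRCm38.p6, miR-698-3p lies at chr4:124743852-124743870 (plus strand), within the coordinates of the protein-coding gene Inpp5b, and miR-697 at chr4:124731768-124731788 (plus strand), within those of Sf3a3. miR-139-5p lies at chr7:101475382-101475403 (plus strand), within Pde2a. miR-100-5p lies at chr9:41531437-41531458 (plus strand), within the long noncoding RNA gene Mir100hg. miR-32-5p lies at chr4:56895272-56895293 (minus strand), within Tmem245. miR-127-3p lies at chr12:109592888-109592909 (plus strand), within the coordinates of Rtl1, and miR-154-5p at chr12:109738438-109738459 and miR-541-3p at chr12:109742466-109742487 (both plus strand) lie within the noncoding gene Mirg. No annotated gene other than its own overlaps miR-484 at chr16:14159630-14159651 (plus strand). These overlaps are with whole gene spans, and exons and introns were not told apart.

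The diet after weaning was compared at each microRNA with limma across the 4 groups. No microRNA passed a Benjamini-Hochberg adjusted p of 0.05 in either direction, 0 of 504 (0.0%). The lowest adjusted p from limma was 0.805, shared by the first 20 microRNAs. At an unadjusted limma p under 0.05 there were 27 of 504 (5.36%), of which 16 were higher (3.17%) and 11 lower (2.18%) in WL, where 25.2 would come under that threshold at 5%. The median difference over all 504 was -0.05, and 236 (46.8%) lay above 0. The 3 WL pools lay entirely above the 3 UL pools for 31 of 486 microRNAs (6.38%) and entirely below for 17 (3.5%), together 48 (9.88%). With only 3 pools against 3, some microRNAs separate in this way without any difference between the groups. Separate pools are therefore a description here and not a test.

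The precision behind these counts was coarse. The median standard error of a difference was 0.434 cycles, which gives a median 95% interval of 0.953 cycles to either side. The median size of the differences themselves was 0.352 cycles. Differences larger than 1 cycle were measured for 47 microRNAs, 22 higher and 25 lower in WL, and in 19 of the 22 the WL 3 pool was the highest of the 6. Without WL 3 there were 33 such differences, 8 higher and 25 lower. The limma p-values treat the 3 pools of a group as independent and measure the spread between pools.

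**Figure D1:**
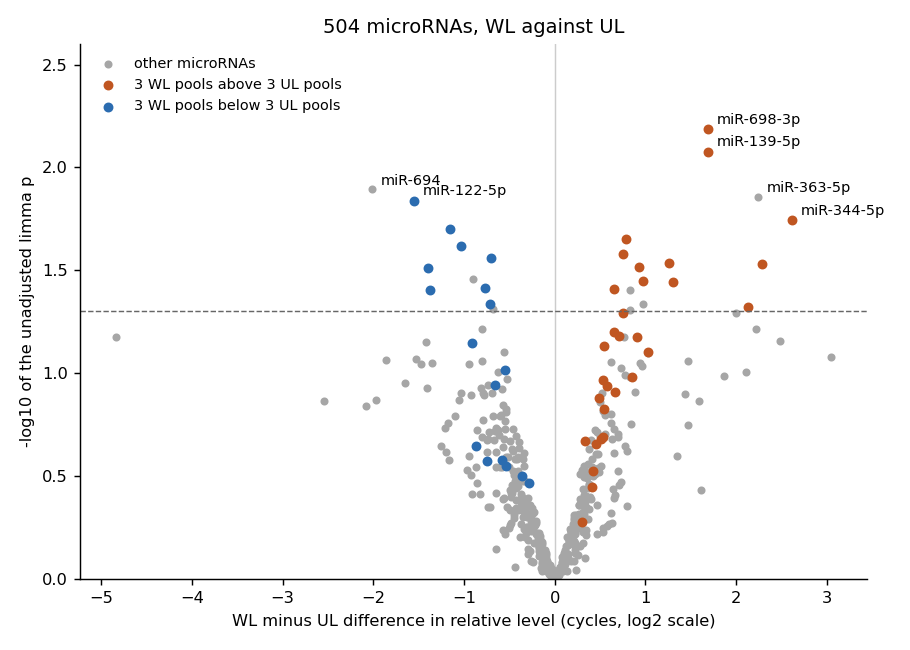
Each point is 1 of 504 microRNAs, with the WL minus UL difference in level (cycles, log2 scale) on the horizontal axis and -log10 of the unadjusted limma p on the vertical axis; the dashed line marks an unadjusted p of 0.05 and colours mark microRNAs whose WL and UL pools do not overlap. The 27 points above the line lie on both sides of 0, and miR-703 lies farthest to the left at -4.84.

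Among microRNAs measured higher in WL, the smallest p belonged to miR-698-3p, one of a group of rodent microRNAs named miR-680 to miR-721. Its level was -0.78, -0.64 and -2.14 in UL 1, UL 2 and UL 3 and -0.02, 0.31 and 1.23 in WL 1, WL 2 and WL 3. The lowest WL pool lay 0.61 cycles above the highest UL pool, and UL 3 was the lowest of the 6. The difference was 1.69 (SE 0.51, limma adjusted p = 0.805), and 1.33 without WL 3. The control group CD, at 0.13 ± 0.37 (SD, n = 3), lay nearer to the WL mean of 0.51 ± 0.65 (SD, n = 3) than to the UL mean of -1.18 ± 0.83 (SD, n = 3).

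miR-697, which lies near miR-698 on chromosome 4, was at 1.91, 1.92 and 1.86 in the UL pools and at 2.79, 2.50 and 3.18 in the WL pools. The UL pools were almost equal, and all WL pools were above them. Its difference was 0.92 (SE 0.37, limma adjusted p = 0.805). The CD mean of 2.65 lay inside the range of the WL pools, as it did for miR-698-3p.

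miR-139-5p represses several growth-signalling genes, the receptor Igf1r among them. It was at 2.57, 2.07 and 1.73 in UL and at 3.31, 2.88 and 5.25 in WL. All WL pools were above the UL pools, with WL 3 well above the rest. The difference was 1.69 (SE 0.53, limma adjusted p = 0.805) and shrank to 0.97 without WL 3.

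miR-100-5p belongs to the family of miR-99 and miR-100, which represses Mtor, the kinase that links nutrient supply to growth. Its level was 4.78, 4.37 and 4.50 in UL and 5.06, 5.44 and 5.41 in WL. The groups did not overlap and WL 3 did not differ from the other WL pools. The difference was 0.75 (SE 0.29, limma adjusted p = 0.805) and 0.70 without WL 3. Its lowest value over the processing alternatives listed at the end was 0.16. The seed relatives miR-99a-5p and miR-99b-5p differed by 0.12 (SE 0.33) and 0.21 (SE 0.51), with overlapping pools. Under RNU-43 scaling miR-99a-5p and miR-99b-5p lay below 0, at -0.23 and -0.14, where the median of all microRNAs was -0.40.

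miR-484, known to restrain mitochondrial fission through Fis1, was at 2.77, 2.31 and 2.25 in UL and at 3.13, 2.87 and 3.31 in WL. The lowest WL pool was 0.10 cycles above the highest UL pool. The difference was 0.66 (SE 0.28, limma adjusted p = 0.805). CD averaged 1.76, below all 6 pools, and UT averaged 2.39.

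miR-804 had the narrowest WL values of the 20, at 0.82, 0.82 and 0.81, against 0.46, -0.04 and -0.34 in UL. Its difference was 0.79 (SE 0.30, limma adjusted p = 0.805). miR-365-1-5p, the passenger arm of a hairpin whose other arm takes part in brown adipocyte differentiation, was at -2.81, -1.70 and -1.81 in UL and -0.70, -0.46 and -1.37 in WL. All WL pools were above the UL pools and WL 3 was the lowest of them. The difference was 1.26 (SE 0.50, limma adjusted p = 0.805), and 1.52 without WL 3. The other arm, miR-365-3p, had overlapping pools, with Ct of 22.99, 22.05 and 22.73 in UL and 22.48, 22.55 and 23.80 in WL. miR-365-2-5p, with the same seed as miR-365-1-5p, differed by -0.73. Its Ct was 19.08, 19.20 and 19.32 in UL and 19.17, 19.35 and 21.25 in WL.

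miR-497-5p, of the miR-15/16 family that slows the cell cycle, was at -0.12, -0.49 and -0.69 in UL and at 0.39, -0.12 and 1.35 in WL. WL 2 and UL 1 were nearly equal. The difference was 0.97 (SE 0.41, limma adjusted p = 0.805), and 0.57 without WL 3. In the same family miR-16-5p differed by 0.28 and miR-195a-5p by -0.37. The Ct of miR-195a-5p was 19.72, 19.47 and 19.44 in UL and 18.99, 20.12 and 20.63 in WL. miR-363-5p was measured late, and its level of -8.39, -11.08 and -10.26 in UL overlapped that of -6.94, -8.70 and -7.37 in WL. Its difference of 2.24 (SE 0.77, limma adjusted p = 0.805) rested on late Ct values, 31.84 to 36.05.

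For 4 more microRNAs whose WL pools lay above the UL pools, the size of the difference came mostly from WL 3. miR-344-5p was at -7.34, -7.05 and -7.07 in UL and at -5.75, -6.33 and -1.54 in WL, a difference of 2.61 that was 1.11 without WL 3. Its Ct was late in the other 5 pools, 30.65 to 32.30, and 26.53 in WL 3. miR-32-5p, linked to thermogenesis in brown fat, was at -4.24, -4.63 and -5.31 in UL and at -3.79, -3.83 and 0.30 in WL. miR-219a-5p, best known from oligodendrocytes, was at -4.24, -4.87 and -5.36 in UL and at -3.86, -4.17 and -0.05 in WL. In these 3, in the order named, the lowest WL pool lay 0.72, 0.41 and 0.07 cycles above the highest UL pool. WL 3 lay far above the other 5 pools in all 3. Without WL 3 the difference of miR-32-5p was 0.91 in place of 2.28, and that of miR-219a-5p 0.81 in place of 2.13. miR-379, from the Dlk1-Dio3 cluster, was at -1.03, -1.68 and -1.10 in UL and at -0.73, -0.77 and 1.61 in WL, with a difference of 1.30 that became 0.52 without WL 3.

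**Figure D2:**
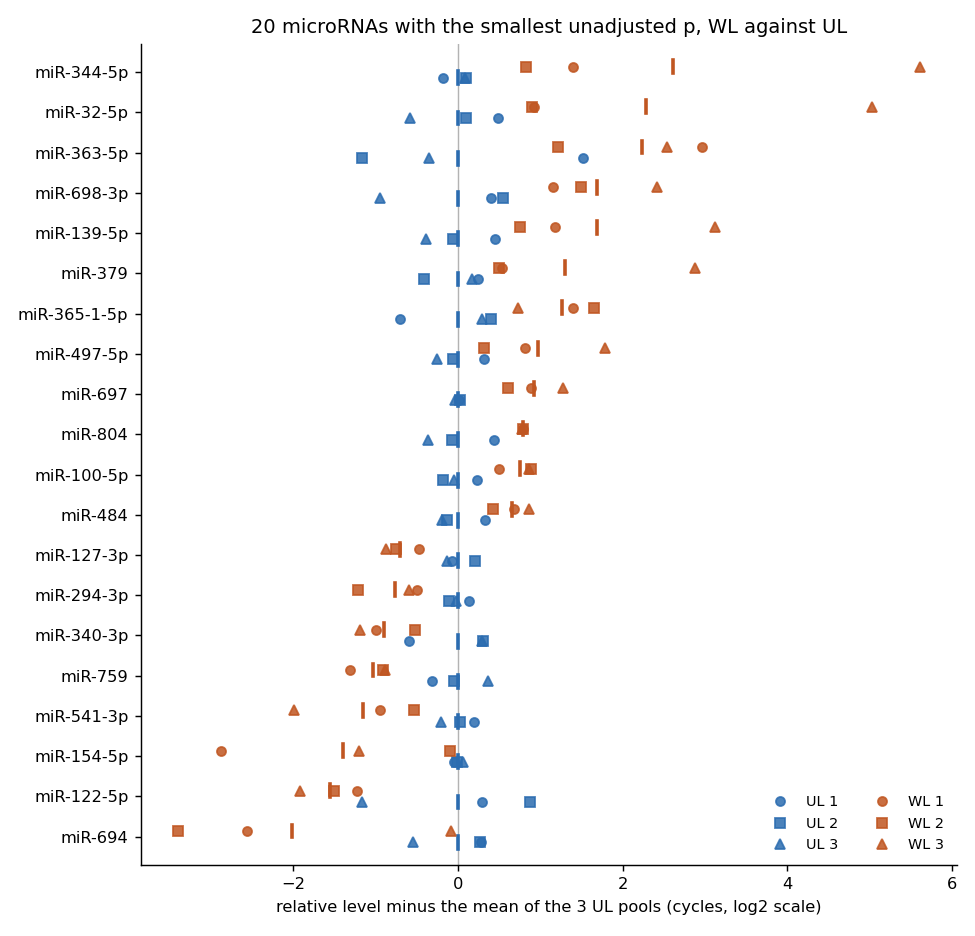
The 20 microRNAs with the smallest unadjusted p, each pool's level minus the mean of the 3 UL pools (cycles, log2 scale); circles, squares and triangles are pools 1, 2 and 3, blue is UL, orange is WL and bars are group means. WL 3 (orange triangle) is the farthest point to the right for miR-344-5p, miR-32-5p, miR-139-5p, miR-379, miR-698-3p, miR-697, miR-497-5p and miR-484. For miR-694 it lies beside the UL pools.

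Among microRNAs measured lower in WL, miR-694 behaved differently from the rest. Its level was -1.07, -1.08 and -1.90 in UL, -3.90 and -4.75 in WL 1 and WL 2, and -1.43 in WL 3. WL 3 thus lay among the UL pools, near the CD and UT means, both -1.03. With all pools the difference was -2.01 (SE 0.68, limma adjusted p = 0.805), and it was -1.32 without WL 2. Without WL 3 it was -2.98 (SE 0.419), with a limma adjusted p of 0.0113, and miR-694 was then the single microRNA past the threshold, 1 of 504 (0.198%). It was also the single one under U6-snRNA scaling (limma adjusted p = 0.0228), which has no value for WL 3 or UT 1 and so leaves both pools out.

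miR-122-5p, the most abundant microRNA of hepatocytes, was at 0.12, 0.70 and -1.34 in UL and at -1.39, -1.68 and -2.09 in WL. The groups nearly touched, because UL 3 lay beside the WL pools. The difference was -1.55 (SE 0.54, limma adjusted p = 0.805). miR-192-5p, of liver and gut, was at 0.76, 0.53 and 2.26 in UL and at -0.18, 0.52 and 0.47 in WL, a difference of -0.92 (SE 0.46) that was -0.38 without UL 3. Here too the groups nearly touched, and UL 3 was the high pool. miR-194-5p has 2 loci, 1 of them on chromosome 1, while miR-192-5p lies on chromosome 19. Its assay therefore does not read the miR-192 transcript alone. miR-194-5p differed by -0.13 with overlapping pools, and 0.30 without WL 3.

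The imprinted Dlk1-Dio3 region on chromosome 12 holds a large microRNA cluster expressed from the maternal chromosome. Of its 52 measured members 22 lay above 0 and 30 below, with a median difference of -0.12 against -0.05 over all microRNAs, and -0.01 without WL 3. The median was above 0, at 0.24, under U6-snRNA scaling. None passed the limma test, and the unadjusted p was under 0.05 for 1 higher and 2 lower, against 3.17% and 2.18% of all microRNAs. The WL pools lay entirely above the UL pools for 2 of the 52, miR-379 and miR-377, and entirely below for 3, miR-127-3p, miR-154-5p and miR-136-5p, against 6.38% and 3.5% of all microRNAs. miR-377 was at -3.16, -3.82 and -3.47 in UL and at -3.15, -3.13 and -2.52 in WL, a difference of 0.55 that was 0.34 without WL 3. miR-136-5p was at -0.36, -0.91 and -0.55 in UL and at -1.16, -1.30 and -1.60 in WL, a difference of -0.75 (SE 0.64). For miR-377 WL 1 and UL 1 were nearly equal, while for miR-136-5p the groups lay apart by more. miR-127-3p was at 1.63, 1.91 and 1.57 in UL and at 1.24, 0.95 and 0.83 in WL, with no overlap and a difference of -0.70 (SE 0.28, limma adjusted p = 0.805). miR-541-3p, from the same region but not among the 52, was at -4.12, -4.29 and -4.52 in UL and at -5.25, -4.84 and -6.30 in WL, a difference of -1.16 (SE 0.43, limma adjusted p = 0.805), and -0.74 without WL 3. miR-154-5p was nearly equal in the 3 UL pools, at 1.67, 1.71 and 1.78, and spread widely in WL, at -1.15, 1.62 and 0.52. WL 2 of miR-154-5p lay close under the UL pools, and the difference was -1.39 (SE 0.57, limma adjusted p = 0.805) and -0.65 without WL 1. The cluster members with the highest levels, miR-667-3p and miR-770-3p, differed by -0.47 (-0.25 without WL 2) and 0.01.

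miR-759 was at -6.06, -5.80 and -5.39 in UL and at -7.05, -6.66 and -6.63 in WL, a difference of -1.03 (SE 0.40, limma adjusted p = 0.805). All WL pools were below all UL pools, with a like distance in each. These levels rested on late Ct values, 30.26 to 31.95. miR-294-3p, of the miR-290 to miR-295 cluster that marks embryonic stem cells, was at -1.18, -1.42 and -1.33 in UL and at -1.80, -2.52 and -1.90 in WL, with a difference of -0.77 (SE 0.33, limma adjusted p = 0.805). Over the 19 measured members of the miR-290 and miR-302 clusters the median difference was -0.14. It was 0.0037 without WL 3, 0.03 without UL 3, and lay above 0 under U6-snRNA scaling (0.25) and quantile normalization (0.01). miR-702-3p, which lies within Plod3, was at 2.29, 2.59 and 3.28 in UL and at 2.23, -0.12 and 1.92 in WL. WL 1 nearly met the UL pools and WL 2 lay lowest, for a difference of -1.38 that was -0.65 without WL 2. miR-340-3p overlapped between groups, with UL at -2.27, -1.38 and -1.39 and WL at -2.67, -2.20 and -2.87, and differed by -0.90 (SE 0.38, limma adjusted p = 0.805).

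The largest difference of all, that of miR-703 at -4.84 (SE 2.39), came from 1 pool. miR-703 was at 5.32, 6.27 and 6.20 in UL and at 5.60, -6.83 and 4.52 in WL, so that WL 2 alone lay far below the others. Without WL 2 the difference was -0.87. Of the 37 measured microRNAs named miR-680 to miR-721, which hold miR-694, miR-697, miR-698-3p, miR-702-3p and miR-703, 13 lay above 0 and 24 below, with a median of -0.10 that turned to 0.04 without WL 3 and 0.24 under U6-snRNA scaling.

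The microRNAs farthest above the other pools in WL 3 were level among those other pools. miR-331-3p was at -2.36, -3.36 and -3.35 in UL, -2.65 and -2.60 in WL 1 and WL 2, and 5.33 in WL 3. miR-721 was at -0.10, -0.30 and -1.03 in UL, -0.18 and 0.18 in WL 1 and WL 2, and 6.02 in WL 3. miR-329-3p was at -3.09, -3.62 and -3.12 in UL, -3.30 and -2.78 in WL 1 and WL 2, and 2.58 in WL 3. For all 3, WL 1 and WL 2 lay with the UL pools, and the differences of 3.05, 2.48 and 2.11 became 0.40, 0.47 and 0.23 without WL 3. miR-215 and miR-216a-5p showed the same form, with differences of 1.86 and 1.47 that became 0.17 and -0.17.

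In 2 pairs of assays the WL 3 values lay near those of the partner assay in the other 5 pools. miR-592-3p was between -5.10 and -4.00 in those 5 and at 0.46 in WL 3, while miR-758-5p was between -0.15 and 0.35 in the 5 and at -4.48 in WL 3. miR-676-3p was between -3.17 and -2.17 in the 5 and at 1.04 in WL 3, while miR-676-5p was between 1.24 and 1.77 in the 5 and at -2.40 in WL 3. The CD means were those of the 5 pools (-5.23, 0.06, -2.49 and 1.47 for the 4 assays in the order named), and the UT means those of WL 3 (0.19, -4.66, 1.55 and -1.97). The cause of the likeness of WL 3 to the UT pools at these assays was not tested.

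**Figure D3:**
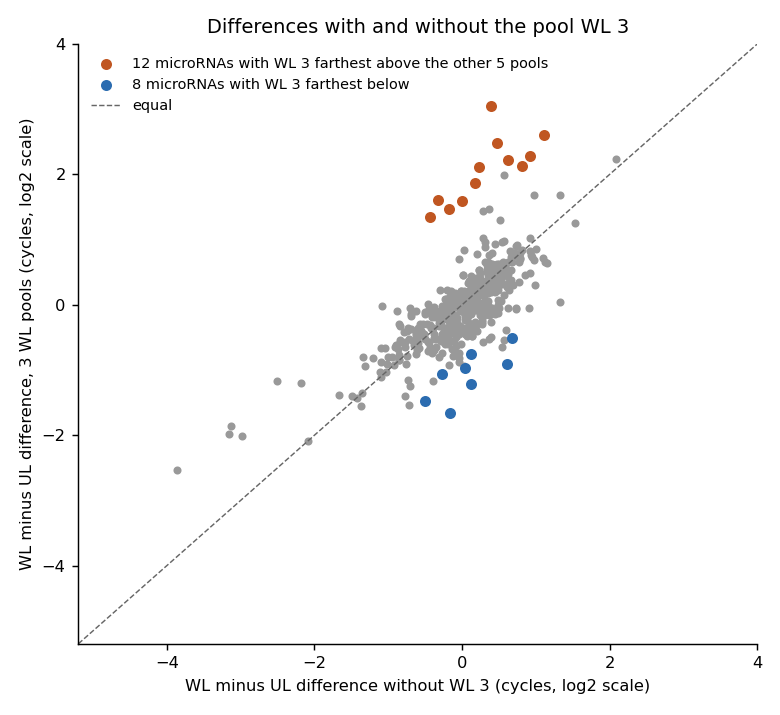
The WL minus UL difference of each microRNA with all 3 WL pools (vertical axis) against the difference without WL 3 (horizontal axis), both in cycles on the log2 scale; the dashed line marks equal values. The 12 orange points, with WL 3 farthest above the other 5 pools, lie above the line, and the 8 blue points, with WL 3 farthest below, lie under it.

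MicroRNAs reported elsewhere to be raised in obese fat were examined next as a group. Of 14 measured, 9 lay above 0 and 5 below, with a median difference of 0.32 and 0.25 without WL 3, against -0.05 and 0.08 over all microRNAs; under RNU-43 scaling the median was -0.03, against -0.40 over all. Without UL 2 the median was 0.16, with 7 above and 7 below 0. None passed the limma test, and the WL pools of 1 of the 14, miR-379, lay entirely above the UL pools, against 6.38% of all microRNAs. miR-335, which lies in Mest, a gene that follows the expansion of fat, was at 1.65, 0.25 and 0.78 in UL and at 2.37, 1.26 and 2.14 in WL. Its UL 1 pool lay above WL 2, and the difference was 1.03 (SE 0.53) and 0.92 without WL 3. miR-21a-5p, a microRNA raised in inflammation and fibrosis, was at 7.40, 8.27 and 7.85 in UL and at 8.89, 8.64 and 7.44 in WL. Its WL 3 pool lay at the UL level, and the difference was 0.48 with WL 3 and 0.92 without, and 0.26 and 0.20 without UL 1 and WL 1. miR-146a-5p, a brake on NF-κB signalling, went the other way: WL 3 was at 7.15 and the other 5 pools between 3.23 and 4.00, so that a difference of 1.43 became 0.29. The 5 members below 0 reached down to -0.53. Among them were miR-222-3p at -0.49 and miR-221-3p at -0.41, whose median was -0.45, or 0.30 without WL 3.

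Of the 16 measured microRNAs reported to be lowered in obese fat, 10 lay above 0 and 6 below, with a median of 0.10, and -0.25 under RNU-43 scaling and -0.05 with quantile normalization. The median also depended on single pools, at 0.0096 without WL 3 with 8 above and 8 below 0, 0.013 without UL 3, -0.17 without UL 2 and -0.08 without WL 2. miR-122-5p and miR-192-5p, described above, were the 2 whose WL pools lay entirely below, against 3.5% of all microRNAs. The members with the highest levels were miR-126a-3p of endothelial cells, which differed by -0.07 and by 0.31 without WL 3, and miR-30c-5p, which differed by 0.11.

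Immune cell microRNAs were considered because visceral fat gains macrophages in obesity. Of 9 leukocyte microRNAs 6 lay above 0, with a median of 0.30 (0.18 without WL 3) that was -0.05 under RNU-43 scaling. Without UL 2 it was -0.003, with 4 above and 5 below 0. miR-142-3p, found in all blood cell lineages, was at 4.56, 3.79 and 3.47 in UL and at 4.56, 3.74 and 5.86 in WL. WL 1 and WL 2 lay within the UL range, and the difference of 0.78 became 0.21 without WL 3. miR-150-5p, of mature lymphocytes, was at 4.66, 4.05 and 4.35 in UL and at 5.16, 4.55 and 4.82 in WL, with a difference of 0.49 that stayed at 0.50. Its groups overlapped through UL 1. Of the 3 leukocyte microRNAs below 0, miR-223-5p had the lowest difference, at -0.63. Its Ct was 28.21, 28.63 and 27.56 in UL and 27.98, 28.39 and 29.91 in WL. Of 3 erythroid microRNAs, miR-451a differed by -0.64 (SE 0.46), or -0.35 without WL 3, and miR-486 by 0.26 (SE 0.33), both with overlapping pools. The third, miR-486-3p, was at 0.78, 0.55 and 0.71 in UL and at -0.16, 0.31 and 0.26 in WL. All its WL pools lay below the UL pools, with a difference of -0.55 (SE 0.30).

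The other cell types of the fat pad showed no common direction. Of 6 endothelial microRNAs 2 lay above 0, with a median of -0.24 that was 0.29 without WL 3 and 0.54 under U6-snRNA scaling. Of 11 stromal and smooth muscle microRNAs 5 lay above 0, with a median of -0.05 that was 0.27 without WL 3 and 0.52 under U6-snRNA scaling. miR-145a-5p, of smooth muscle and stroma, was at 7.03, 6.48 and 6.28 in UL and at 6.83, 7.52 and 7.11 in WL. Its pools overlapped, and the difference was 0.55 (SE 0.40), or 0.37 without WL 2. That was the largest difference of the 11, of which 6 lay below 0. Among those 6, miR-29c-3p differed by -0.23, or 0.27 without WL 3. miR-199a-5p and miR-199a-3p differed by -0.55 and -0.50, with the latest Ct in WL 3, at 22.24 and 20.03.

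Endothelial, stromal and leukocyte microRNAs were detected in every pool, as they are in fat. Epithelial, germ cell, muscle and liver microRNAs were included to gauge other tissue. The epithelial miR-200c-3p was well detected and uneven among pools, at 4.48, 2.90 and 4.35 in UL and at 2.94, 5.35 and 5.03 in WL. miR-205-5p followed the same order of high and low pools, at 4.57, 3.17 and 3.81 in UL and at 3.15, 5.29 and 4.85 in WL, so UL 2 and WL 1 were low in both. The median over 11 epithelial microRNAs was 0.13, with -0.08 without WL 3, -0.19 without UL 2, -0.26 without WL 2 and -0.22 under RNU-43 scaling. miR-429 and miR-182-5p differed by -1.53 and -1.41, and by -0.71 and -0.77 without WL 3. Of 12 germ cell and epididymal microRNAs 8 lay below 0, with a median of -0.28, or 0.17 under U6-snRNA scaling. Without WL 3 it was -0.08, with 6 above and 6 below 0. miR-742-3p, of testis, was at 5.24, 5.06 and 4.54 in UL and at 4.06, 3.83 and 4.56 in WL, a difference of -0.80 (SE 0.43) in which WL 3 lay just above UL 3. Of 6 muscle microRNAs 3 lay above 0 (median -0.03, and 0.14 under U6-snRNA scaling), and miR-133a-3p differed by -0.16. Of 4 liver and gut microRNAs 3 lay below 0 (median -0.52). The part of such tissue in the differences of other microRNAs was not tested.

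MicroRNAs that act on adipocyte differentiation were divided by direction of action. Of 23 that promote it, 17 lay above 0 and 6 below (median 0.19 with and 0.20 without WL 3, 0.07 without UL 3, and -0.16 under RNU-43 scaling). Of 19 that hold it back, 8 lay above 0 and 11 below (median -0.03, with 0.18 without WL 3 and 0.43 under U6-snRNA scaling). The pools of the 2 groups did not overlap for 0 of the 23 and 0 of the 19, against 9.88% of all microRNAs, and none passed the limma test. miR-148a-3p, which promotes adipogenesis, had the highest difference of the 23, at 0.94 (0.45 without WL 3 and 0.55 without UL 3). The lowest was that of miR-107-3p at -0.95, with Ct of 25.20, 24.12 and 23.51 in UL and 24.65, 23.79 and 27.22 in WL. miR-27b-3p, which represses Pparg, had the highest of the 19, at 0.88 (0.31 without WL 3). Below 0 in that list were, among others, miR-222-3p at -0.49 and miR-221-3p at -0.41, described above.

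Among microRNAs linked to thermogenesis and to metabolic host genes, the arms of miR-378 had unequal differences. This microRNA lies in Ppargc1b, a coactivator of mitochondrial genes. miR-378-3p was at 0.94, -0.18 and 0.02 in UL and at 1.30, 0.85 and 1.14 in WL. Only UL 1 reached the WL range, and the difference was 0.83 (SE 0.36, limma adjusted p = 0.805) and 0.81 without WL 3. miR-378-5p differed by 0.06 (SE 0.41), and by -0.19 without WL 3. The CD mean of miR-378-3p was -0.38, below both groups. miR-483, from an intron of Igf2 and known as nutritionally programmed in fat, was at 1.57, 0.56 and 0.63 in UL and at 1.35, 1.38 and 1.89 in WL. UL 1 lay among the WL pools, and the difference was 0.62 (SE 0.33), or 0.94 without UL 1, with CD at 0.35. miR-26a-5p, of the thermogenic list, differed by -0.13 with overlapping pools, and by 0.27 without WL 3. Over 20 thermogenic microRNAs 13 lay above 0 (median 0.15, with 0.29 without WL 3, 0.07 without UL 3 and -0.20 under RNU-43 scaling), and over 11 in metabolic host genes 7 did (median 0.09, with 0.24 without WL 2, 0.04 without UL 2 and -0.25 under RNU-43 scaling).

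The series was also concerned with mTOR signalling, so microRNAs that repress the pathway were described as a list. Of 17 measured, 10 lay above 0 and 7 below, with a median of 0.21 (0.28 without WL 3, 0.07 without UL 3, -0.14 under RNU-43 scaling). The WL pools lay entirely above the UL pools for 3 of the 17 against 6.38% of all microRNAs: miR-100-5p, miR-497-5p and miR-218-5p. miR-218-5p was at -0.24, -1.22 and -0.83 in UL and at -0.18, -0.09 and -0.04 in WL, a difference of 0.66 (SE 0.32) that was 0.43 without UL 2. UL 1 lay close to the WL pools. miR-16-5p, the highest of the list, differed by 0.28 (SE 0.40), or 0.49 without WL 3, with overlapping pools.

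The let-7 family, which represses insulin and growth signalling genes, was on the higher side in WL in 8 of 9 members. Over all microRNAs 46.8% lay above 0. The let-7 median was 0.35 with and without WL 3. Under RNU-43 scaling it was 0.00, against -0.40 over all microRNAs. None of the 9 passed the limma test. The WL pools lay entirely above the UL pools for 3 of the 9 members, against 6.38% of all microRNAs. let-7a-5p was at 7.80, 7.51 and 7.23 in UL and at 7.83, 7.83 and 7.89 in WL, with a difference of 0.33 (SE 0.25), or 0.19 without UL 3. let-7c-5p was at 7.86, 8.25 and 7.83 in UL and at 8.32, 8.43 and 8.78 in WL, with a difference of 0.53 (SE 0.30). let-7i-5p was at 5.35, 4.85 and 5.12 in UL and at 5.56, 5.39 and 5.65 in WL, with a difference of 0.42 (SE 0.39). The WL pools of let-7a-5p were almost equal and just above UL 1. let-7e-5p differed by 0.77, with WL 3 at 8.60 and the rest between 6.47 and 7.58, and by 0.37 without WL 3. The exception was let-7d-5p, at 5.82, 6.85 and 6.78 in UL and at 6.45, 6.27 and 6.00 in WL, with a difference of -0.25.

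The miR-30 family, which promotes adipogenesis, was on the higher side in WL in 5 of 5 members. Its median was 0.39 with and without WL 3, 0.72 without UL 1 and 0.12 without UL 3. Under RNU-43 scaling it was 0.04, against -0.40 over all microRNAs, and miR-30c-5p and miR-30d-5p lay below 0. In no member were the WL and UL pools separate. miR-30e-5p had the largest difference at 0.73 (SE 0.40), from 5.46, 4.62 and 4.46 in UL and 6.00, 5.59 and 5.15 in WL. UL 1 was the highest UL pool for all 5 members, and for 3 of the 5, miR-30a-5p, miR-30b-5p and miR-30d-5p, it lay above every WL pool. The members of a family share sequence, and PCR assays for them may pick up one another, so they are not independent measurements.

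**Figure D4:**
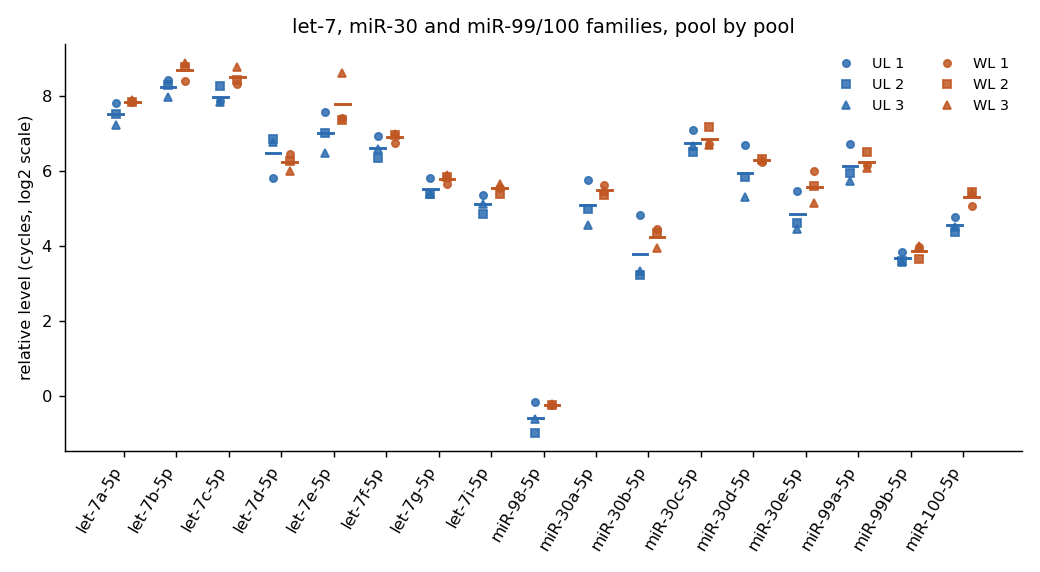
Levels of let-7 and miR-98, miR-30, miR-99 and miR-100 family members in each pool (cycles, log2 scale); circles, squares and triangles are pools 1, 2 and 3, blue is UL, orange is WL and bars are group means. The WL bar lies above the UL bar for every member shown except let-7d-5p, by 0.11 (miR-30c-5p) to 0.77 (let-7e-5p). Under RNU-43 scaling, where the median of all microRNAs was -0.40, let-7a-5p, let-7f-5p, let-7g-5p, miR-30c-5p, miR-30d-5p, miR-99a-5p and miR-99b-5p lie below 0.

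Seeds were used to group the rest. Among the 393 microRNAs with a sequence, 45 seeds were shared by 2 or more assays, 121 assays in all. The seed AUUGCAC joined miR-32-5p with miR-25-3p, miR-92a-3p and miR-363-3p, with 3 of 4 above 0 and a median difference of 0.39, or 0.04 under RNU-43 scaling. miR-25-3p was at 2.93, 2.88 and 2.56 in UL and at 3.33, 3.43 and 3.36 in WL, a difference of 0.58 (SE 0.34) without overlap. The lowest value for miR-25-3p over the processing alternatives listed at the end was 0.02. miR-92a-3p differed by 0.19 with overlapping pools (0.39 without WL 3). The seed AGCAGCA joined miR-322-5p with miR-16-5p and 3 others, with 4 of 5 above 0 and a median of 0.33, or -0.02 under RNU-43 scaling. The exception was miR-195a-5p at -0.37. miR-322-5p, from a cluster on the X chromosome, was at 2.76, 2.28 and 2.44 in UL and at 3.44, 2.63 and 4.32 in WL. Its WL 2 pool lay under UL 1, and the difference of 0.97 (SE 0.43) became 0.54 without WL 3. The seed of miR-721, AGUGCAA, is that of the miR-130 family, whose members miR-130a-3p and miR-130b-3p differed by -0.10 and 0.08.

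The arms of a hairpin come from 1 precursor, so their differences were set side by side. Both arms were measured for 96 hairpins. The differences had the same sign in 55 and opposite signs in 41. For let-7e the arms lay apart over the 5 pools without WL 3, where let-7e-3p had no value, at 0.37 for let-7e-5p and -1.42 for let-7e-3p.

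**Figure D5:**
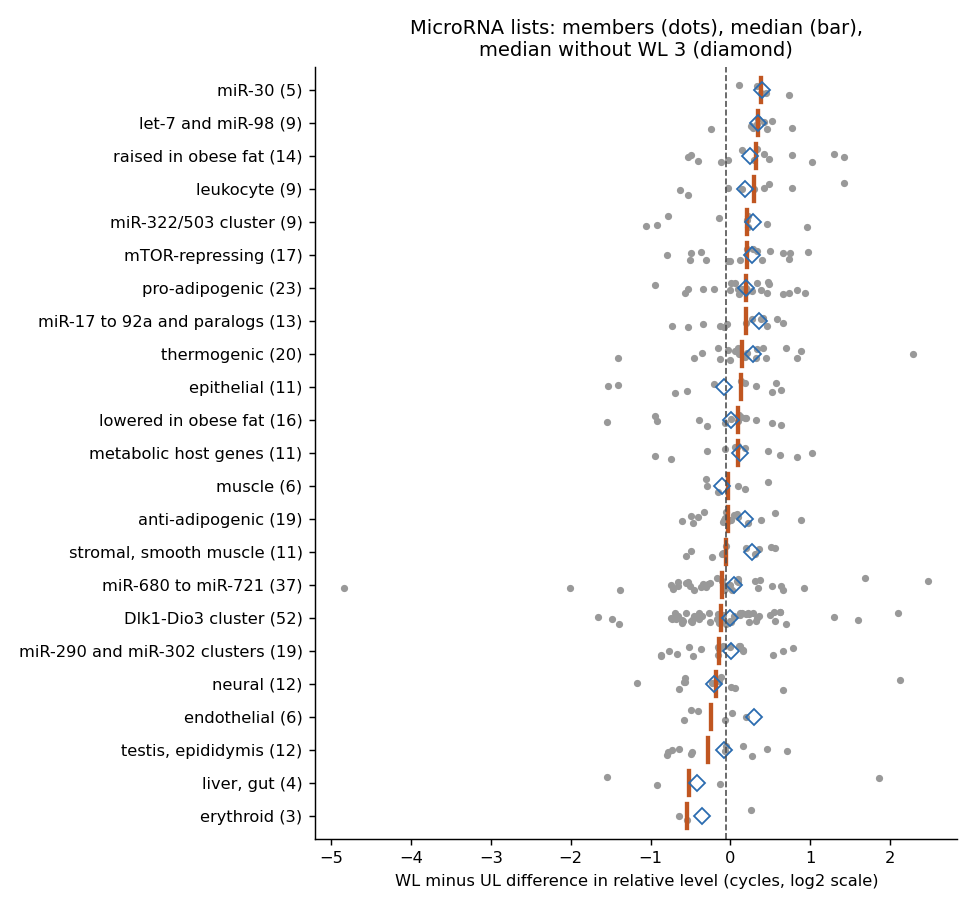
Differences (WL minus UL, cycles on the log2 scale) of the members of 23 microRNA lists, with measured members in brackets; grey dots are microRNAs, orange bars the list medians, blue diamonds the medians without WL 3 and the dashed line the median of all 504 (-0.05). With the mean Ct scaling the list medians lie between -0.55 (erythroid) and 0.39 (miR-30). Without WL 3 the medians of the endothelial, stromal, anti-adipogenic, epithelial, miR-680 to miR-721, and miR-290 and miR-302 lists lie on the other side of 0.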

How the data were processed

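Fat pad RNA (about 22 mg of tissue, miRNeasy kit, per the labels' protocols) was measured by PCR; the sources used here do not name the instrument, chemistry or threshold rule. The authors deposited the Ct values, described as not normalized per the file headers, and a table of normalized values as a ratio to housekeeping genes. Per pool, Ct minus log2 of that deposited ratio was constant (24.74 to 25.46), so the deposited ratios rise with Ct, against the direction of their header. A deposited fold-change table was not used, since it sets groups against CD only.

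Of 507 lines, 1 duplicate was dropped and 2 under the name miR-378 were told apart by accession. MicroRNAs with a Ct under 35 in at least 3 pools were tested, which removed 0. Levels were fitted with limma 3.58.1 (lmFit, eBayes; R 4.3.3) over 12 pools in 4 groups, with Benjamini-Hochberg adjustment over 504; missing values stayed missing, so 18 microRNAs lack 1 of the 6 values. The script was tested on simulated data.

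Members and lists were chosen with earlier results of these data known. Named were the 20 microRNAs with the smallest p, the 6 largest differences without overlap in each direction, and, from each list, the 2 with the highest level over all pools. Chosen after their values were seen were miR-335, miR-378, miR-483, miR-703, let-7, miR-98, miR-30, miR-99b-5p, miR-146a-5p, miR-25-3p, miR-218-5p, miR-148a-3p, miR-27b-3p, miR-429, miR-182-5p, miR-130, let-7e-3p, miR-486-3p, miR-377, miR-136-5p and those farthest out in WL 3. miR-365-3p, miR-365-2-5p, miR-195a-5p, miR-199a, miR-221-3p, miR-222-3p, miR-223-5p and miR-107-3p were also chosen after their values were seen. Litter and pool composition could not enter the model. No depth applies to Ct values; their precision was judged from the pools. 1 list of microRNAs is not reported here.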

Additional observations from a re-analysis of the deposited data

How the results depend on the processing

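Over 28 alternatives, 12 of which left out 1 pool each, the count past the limma threshold was 0 in 26 and 1 in 2, and the range over the left-out pools was 0 to 1. The count of 1, lower in WL, was miR-694 each time: without WL 3, and under U6-snRNA scaling, which lacks WL 3. At an unadjusted limma p under 0.05 there were 9 to 42 microRNAs over the left-out pools and 13 to 33 over the other 16 alternatives. With the replicate number of the pools as a block the limma count stayed at 0, with 29 at an unadjusted p under 0.05 over 12 pools and 13 over the 6. The deviations of same-numbered UL and WL pools correlated at -0.18, 0.16 and 0.01, and those of differently numbered pools at -0.31 to 0.28. With 3 pools a group, whether the numbers pair the pools cannot be told from these values. All 23 microRNAs named for their p or their separate pools kept their sign under every alternative in which they were tested, as did 64 of all 96 named. The 23 were chosen from these same pools for a small p or separate pools, so their signs could hardly turn. Where pools are separate, leaving 1 out cannot change the sign, and leaving out a CD or UT pool moves no difference. With scaling to U6-snRNA the difference was 0.55 for miR-126a-3p, 0.52 for miR-26a-5p, 0.21 for miR-125b-5p, 0.52 for miR-29c-3p, 0.54 for miR-194-5p, 0.14 for miR-133a-3p, 0.38 for miR-291a-5p, 0.10 for miR-302d-5p, 0.062 for miR-712-5p, 0.41 for miR-690, 0.12 for let-7d-5p, 0.078 for miR-758-5p, -0.19 for miR-592-3p and 0.37 for miR-676-5p. With the deviation of neighbouring assays taken off (their median) the difference was 0.065 for miR-126a-3p, -0.076 for miR-30c-5p, -0.079 for miR-16-5p, -0.083 for miR-99a-5p, 0.011 for miR-125b-5p, -0.091 for miR-103-3p, -0.15 for miR-486, -0.045 for miR-200c-3p, 0.30 for miR-194-5p, 0.17 for miR-133a-3p, -0.042 for miR-124-3p, -0.059 for miR-770-3p, 0.091 for miR-712-5p, 0.044 for miR-690, -0.25 for miR-378-5p, -0.15 for let-7f-5p and -0.013 for let-7g-5p. With scaling to RNU-43 the difference was -0.24 for miR-30c-5p, -0.063 for miR-16-5p, -0.23 for miR-99a-5p, -0.25 for miR-103-3p, -0.083 for miR-486, -0.32 for miR-126a-5p, -0.34 for miR-124-3p, -0.34 for miR-770-3p, -0.0067 for miR-30d-5p, -0.16 for miR-92a-3p, -0.28 for miR-378-5p, -0.013 for let-7a-5p, -0.067 for let-7f-5p, -0.083 for let-7g-5p and -0.14 for miR-99b-5p. With quantile normalization the difference was -0.077 for miR-30c-5p, -0.025 for miR-103-3p, -0.17 for miR-124-3p, -0.035 for miR-770-3p, -0.015 for miR-92a-3p and 0.14 for miR-712-5p. With the median Ct in place of the mean the difference was -0.018 for miR-124-3p and -0.018 for miR-770-3p. With the deposited ratios the difference was -0.017 for miR-124-3p and -0.014 for miR-770-3p. With the values of the 2 assay pairs exchanged the difference was -0.30 for miR-592-3p. Leaving out 1 pool at a time gave differences of both signs, as ranges, for miR-126a-3p -0.42 to 0.31, miR-30c-5p -0.043 to 0.28, miR-16-5p -0.055 to 0.49, miR-99a-5p -0.082 to 0.41, miR-26a-5p -0.53 to 0.27, miR-125b-5p -0.32 to 0.36, miR-103-3p -0.10 to 0.36, miR-126a-5p -0.15 to 0.30, miR-29c-3p -0.71 to 0.27, miR-194-5p -0.43 to 0.30, miR-124-3p -0.43 to 0.28, miR-770-3p -0.11 to 0.099, miR-291a-5p -0.84 to 0.14, miR-302d-5p -0.28 to 0.0062, miR-690 -0.43 to 0.29, miR-378-5p -0.19 to 0.24, miR-592-3p -0.44 to 2.35, miR-676-5p -1.96 to 0.12 and miR-216a-5p -0.17 to 2.44. The cause of these changes of sign was not tested. Each microRNA has its own 95% interval, and the median one reached 0.953 cycles to either side, with only 3 pools a group.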
